A study of Mus musculus with 7 samples.

Results

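*Ptf1a* and 6 other genes of the early pancreas, *Pdx1*, *Neurog3*, *Gcg*, *Ins2*, *Rbpjl* and *Cpa1*, were followed in posterior second heart field (pSHF) tissue of *Shh* -/- and *Shh* +/+ embryos. They are 7 of the 21475 named genes on the array, and every gene-named probe of each was used, 9 probes in all. The genes were selected on their names, after the log2 signal of *Ptf1a* had been seen to be higher in these same mutant pools, and the question was whether other pancreas genes rose with it. The genotype difference of these 7 genes is therefore given as a description, with its standard error and without a test.

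*Shh* +/- females on a background labelled C56B/6 and CD-1 mixed were superovulated and mated to *Shh* +/- males, and pSHF tissue was taken at E9.5. Tissue of genotyped embryos was pooled, 4 pools of *Shh* -/- (mutant pools 1, 2, 3 and 4) and 3 pools of *Shh* +/+ (wild-type pools 1, 3 and 4), and each pool was hybridized with 1 dye to 1 Agilent array. How many embryos made up a pool is not given in the sources used here. The *Shh* -/- embryos lack *Shh* in every tissue, so that differences arising in the heart field mesenchyme and in the foregut cannot be told apart. The dissection, per the study, kept the foregut attached to the mesenchyme and left out the heart, the neural tube and the dorsal lateral plate mesenchyme. Head tissue in front of the heart and tail tissue behind it were cut away as well. How much of the foregut that forms the pancreas the pools hold is not given in the sources used here. In such bulk tissue a lower signal from fewer cells of a type and one from less RNA per cell cannot be told apart.

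The pancreas forms from dorsal and ventral buds of the posterior foregut, and endoderm that is to become pancreas is kept free of Hedgehog ligand, because Hedgehog signaling restrains the pancreatic program there. *Pdx1* and *Ptf1a* are transcription factors of the pancreatic progenitors. *Neurog3* commits progenitors to the endocrine lineage, glucagon (*Gcg*) and insulin (*Ins2*) are the hormones of the first endocrine cells, and in acinar cells PTF1A forms a complex with RBPJL that drives digestive enzyme genes, with *Cpa1* also an early mark of the tips of the pancreatic buds. PTF1A is made outside the pancreas too, in the dorsal neural tube, hindbrain and retina.

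What each array read was a 60-base probe, and the results below turn on a few of them. The *Ptf1a* probe, the *Neurog3* probe and both *Ins2* probes lie in the coding part of their messages and are shown here 5′ to 3′ as the scan files give them. The first shows what stands behind the *Ptf1a* difference, since it is the single probe of that gene and has a single spot per array. The *Ins2* probes are shown because they overlap by 40 bases, marked in capitals, yet their pools ranked differently.
Ptf1a: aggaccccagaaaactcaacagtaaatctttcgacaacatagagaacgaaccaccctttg
Neurog3: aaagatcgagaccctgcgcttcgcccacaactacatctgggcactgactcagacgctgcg
Ins2, first probe: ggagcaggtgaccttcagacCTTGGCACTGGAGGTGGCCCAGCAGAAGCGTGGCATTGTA
Ins2, second probe: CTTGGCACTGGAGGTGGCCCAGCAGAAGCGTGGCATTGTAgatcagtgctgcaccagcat
In the mm9 annotation of the array these lie at chr2:19368720-19368779 (plus strand), chr10:61596570-61596629 (plus strand), chr7:149864675-149864734 and chr7:149864655-149864714 (both minus strand). The first *Gcg* probe and the second *Ins2* probe were printed as 10 spots on each array, which gives an error within the array, and the other members' probes as 1 spot.

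Signals are normalized log2 values (normexp background correction and VSN, variance stabilizing normalization), and a difference is the mutant mean minus the wild-type mean on that scale. Of the 23129 probes tested in 14896 genes, limma called 129 at a Benjamini-Hochberg adjusted p under 0.05, and the median difference of all tested probes was 0.02. The array medians lay between 6.16 and 6.34, and no array had more than 70.6% of its probes well above background by the Feature Extraction flag. Every mutant pool took the first array position of its slide and every wild-type pool the other one, and the effects of position and of genotype cannot be told apart. Pools of the same number shared a slide, whereas mutant pool 2 had a slide to itself, and its label records a possible leak during hybridization. *Shh* was at 9.67, 9.39, 9.22 and 9.32 in the mutant pools and 10.72, 10.74 and 9.98 in the wild-type pools, lower in each mutant pool and not at background. Whether its probe lies in the deleted part is not given in the sources used here. *Hhip*, a direct Hedgehog target, fell by 2.83 (standard error 0.18, limma's adjusted p = 0.00126), while *Shh* itself (−1.08, 0.0653), *Gli1* (−1.02, 0.0672) and *Ptch1* (−1.17, 0.143) were not called.

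*Ptf1a*, which encodes the bHLH subunit of the PTF1 complex, had the largest difference of the 7 genes. Its log2 signal was 6.81, 6.07, 5.01 and 6.51 across the mutant pools (1, 2, 3 and 4, the order used throughout), while wild-type pools 1, 3 and 4 were at 3.94, 4.89 and 4.38. The lowest mutant pool lay just above the highest wild-type pool, both on the same slide, and the groups did not overlap. The means were 6.10 ± 0.79 (SD, n = 4) and 4.40 ± 0.48 (SD, n = 3), a difference of 1.70 (standard error 0.48) or 3.24-fold. Within the slides the difference was 2.87 for pools 1, 0.12 for pools 3 and 2.13 for pools 4, so the slide of pools 3 contributed almost none of it.

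*Ptf1a* was a dim probe. Before normalization its mean intensity was 119.3, 104.8, 71.4 and 106.2 in the mutant pools against 35.5, 57.6 and 46.1 in the wild-type pools, with local backgrounds of 21 to 28 intensity units. It was well above background in 4 of 4 mutant pools and in 2 of 3 wild-type pools, wild-type pool 1 being the exception. When the signal of wild-type pool 1 was raised to the lowest signal well above background on that array, 4.75, the difference was 1.43, or 2.69-fold. The difference was above 0 under every setting tried, from 0.72 with scaling to the 75th percentile and 0.83 with quantile normalization up to 2.18 with the scanner's processed signals.

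**Figure D1:**
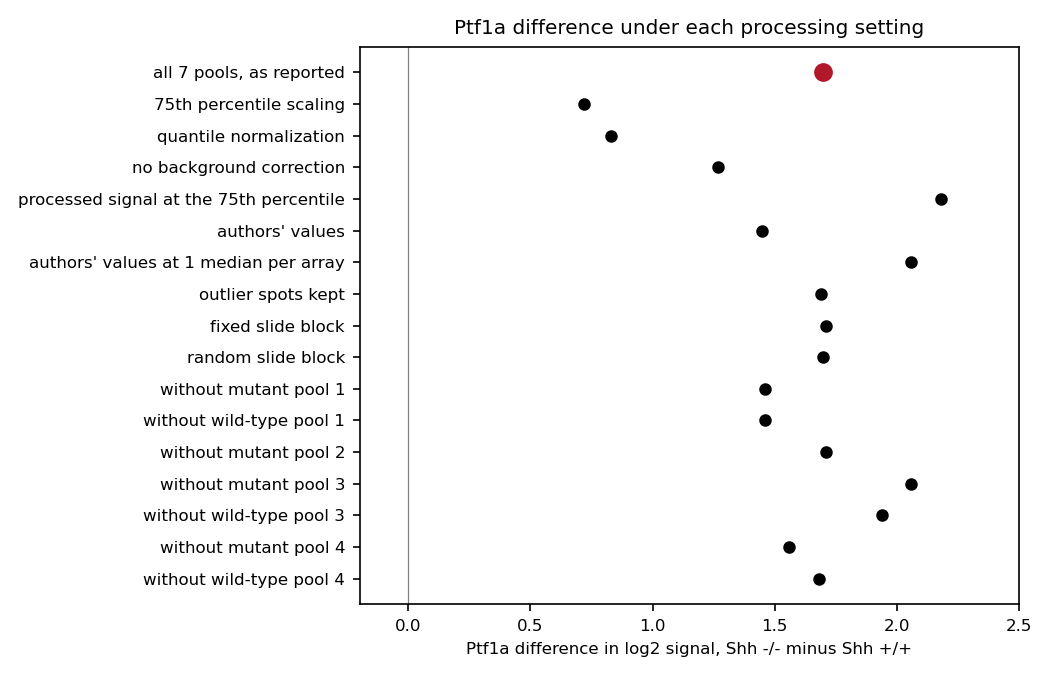
Difference in *Ptf1a* log2 signal, *Shh* -/- minus *Shh* +/+ (horizontal axis), under each processing setting and with each pool left out (rows). The large red point is the reported value of 1.70, and every point lies above 0, the lowest at 0.72.

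*Pdx1*, the homeobox factor that marks the pancreatic and duodenal endoderm, was near background. Its log2 signal was 4.49, 5.64, 4.96 and 4.80 in the mutant pools and 3.89, 5.03 and 4.48 in the wild-type pools. It was well above background in 3 of 4 mutant and 2 of 3 wild-type pools and so was not among the probes tested. The groups overlapped, and the difference of 0.50 (standard error 0.41) was about as large as the spread within a genotype, with SDs of 0.49 and 0.57. The highest mutant pool was pool 2, and within slides the difference was 0.59, −0.07 and 0.32.

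Of the other pancreas progenitor factors on the list, 16 were tested and none was called. The median difference was 0.03, with 9 higher and 7 lower means, and 4 had an unadjusted p under 0.05. The largest differences were those of *Nkx6-1*, a factor of pancreatic progenitors, later of beta cells, and of the ventral neural tube (−0.85, limma's adjusted p = 0.0677), *Hnf4a*, a factor of liver and gut endoderm (0.84, adjusted p = 0.132), and *Nkx6-2* (0.61, adjusted p = 1.00). A second *Hnf4a* probe was at −0.15. *Nkx6-1* was called with 75th percentile scaling (adjusted p = 0.0403), with quantile normalization (0.0474), with no background correction (0.0458), with a random slide block (0.0479) and without mutant pool 1 (0.0408). *Sox9* (0.02 on its brightest probe and −0.45 and −0.13 on the others), *Mnx1* (−0.18) and *Foxa2* (−0.25), all expressed in the pancreatic endoderm, were not called either. *Onecut1* was higher, at 0.60 on its brightest probe (adjusted p = 0.904) and 0.80 on the other (0.155). *Prox1* was at 0.58 on its brightest probe (adjusted p = 0.241) and at 0.03 and 0.30 on the others. Neither was called.

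*Neurog3*, the bHLH factor that starts endocrine differentiation, went the other way from *Ptf1a*. Its log2 signal was 4.54, 4.61, 4.70 and 4.73 in the mutant pools and 4.85, 4.99 and 5.08 in the wild-type pools. No mutant pool reached the lowest wild-type pool, and the difference was −0.33 (standard error 0.08), with −0.31, −0.30 and −0.35 within the 3 slides. The probe was well above background in 3 of 3 wild-type and 2 of 4 mutant pools, so both groups lay close to the limit of detection. The sign depended on the processing. In the authors' own values set to 1 median per array the difference was 0.24, and in the other settings it lay below 0.

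Of the other 16 endocrine transcription factors on the list, 12 passed the background filter, and the means of these were lower in the mutants. The filter bears on that count, because *St18* and *Neurod1* passed it through the wild-type pools, with 2 of 4 mutant pools well above background, as did *Fev* and *Myt1* with 3 of 4. Of the 4 that did not pass, *Lmx1a* and *Pax4* were at 0.62 and 0.31 and *Mafa* and *Neurod2* at −0.12 and −0.25, so the 12 do not stand for the whole list. Past the threshold fell 2 of the 12. *St18* fell by 1.1 (limma's adjusted p = 0.0146), although mutant pools 1 and 2 were not well above background, and *Irx1* fell by 1.01 (adjusted p = 0.0249). *Irx2*, next in size, was at −0.79 (adjusted p = 0.0973), and *Neurod1*, *Isl1* and *Insm1* were at −0.57, −0.43 and −0.54. The *St18* difference was −0.53 with 75th percentile scaling (adjusted p = 0.516) and −0.47 with quantile normalization (0.0789), and its call was also lost with no background correction (−0.71, 0.0508) and with the scanner's processed signals (−1.27, 0.0631). *Irx1*, *Irx2* and *Isl1* are also genes of mesoderm and neural tissue. Between 7 and 12 of the 12 were lower across the settings, the fewest in the authors' values at 1 median per array. Of the 50 tested genes of the 4 pancreas lists other than the 7, limma called 1 higher and 2 lower with all pools, and 0 with the slide as a fixed block, where *Irx1* and *St18* both had an adjusted p of 0.0655. Both lost their calls without wild-type pool 1 (0.108 and 0.0847), without mutant pool 3 (0.0895 and 0.0674) and without wild-type pool 3 (0.0565 and 0.0575), and *Irx1* also without mutant pool 2 (0.0594) and without wild-type pool 4 (0.0798).

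Beside this result, the neural tube list had mean log2 levels of 6.69 to 7.06 in mutant pools and 7.28 to 7.64 in wild-type pools. The groups did not overlap. These levels average the 14 list genes on the array, 5 of which did not pass the background filter. Falls were largest for *Hes5* (−2.66, limma's adjusted p = 0.105) and *Zic1*, while *Tubb3* was at −0.04, *Nes* at 0.05 and *Dcx* at 0.34. The list had a lower mean for 7 of its 9 tested genes, with a median difference of −0.37. Its defining markers were dim, with *Sox1* well above background in 1 of 7 pools, *Pax3* at −0.57 (adjusted p = 0.565) and *Olig2* at −0.13. *Zic1* of this list fell by 1.92 (limma's adjusted p = 0.0439), a call lost with each pool left out except mutant pool 4 (up to 0.231 without wild-type pool 1). *Nkx6-1* of the progenitor list stands on this list as well. The posterior second heart field list, which holds *Isl1*, had a lower mean level too, without overlap. It was at 11.05 to 11.22 in the mutant pools and 11.42 to 11.48 in the wild-type pools. Of its 18 means 14 were lower, but the median difference was only −0.07, against 0.02 for all tested probes. The largest falls on it were those of *Foxf2* (−2.43), *Osr1* (−0.88) and *Foxf1a* (−0.80). The part of neural tissue and of heart field mesenchyme in the endocrine factor differences was not tested.

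**Figure D2:**
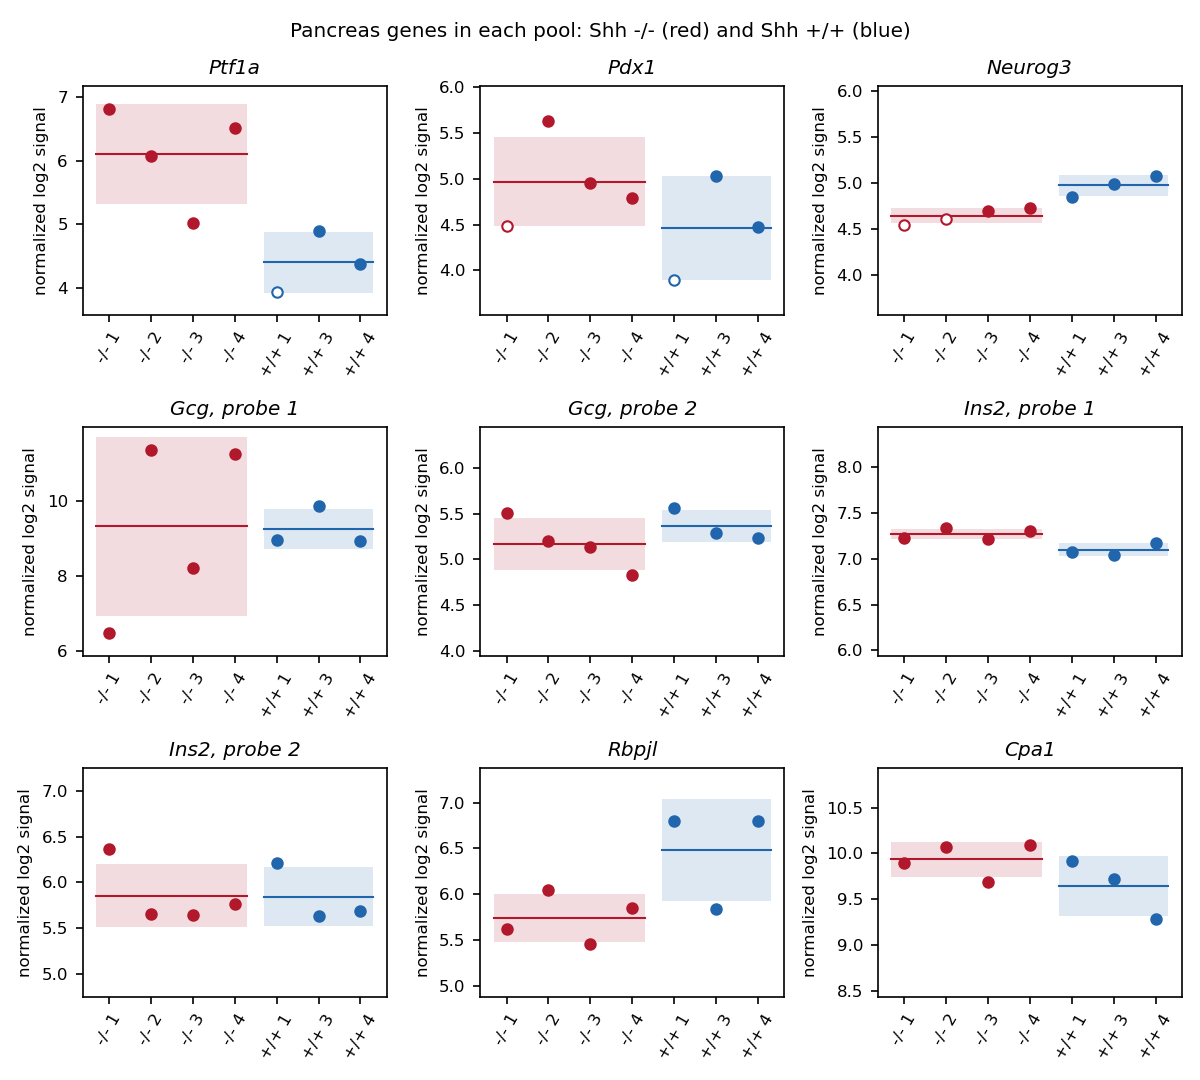
Normalized log2 signal (vertical axes, each spanning its own range) of the 9 probes in the 4 *Shh* -/- pools (red) and 3 *Shh* +/+ pools (blue). Filled points were well above background and open points were not, lines are group means and shaded bands are ± 1 SD. *Ptf1a* and the first *Ins2* probe lie higher and *Neurog3* lower in every mutant pool, while *Gcg* spreads widely among the mutant pools.

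*Gcg*, the glucagon gene, showed no difference in mean beyond its spread but the widest spread between pools of the 7 genes. Its log2 signal was 6.49, 11.35, 8.21 and 11.24 in the mutant pools and 8.95, 9.86 and 8.94 in the wild-type pools. Mutant pools 2 and 4 lay above all wild-type pools and mutant pools 1 and 3 below all of them. The difference of the means was 0.07 (standard error 1.23), with values from −0.60 to 1.02 when 1 pool was left out, and within slides it was −2.46, −1.65 and 2.30. The mutant pools spanned a 29.2-fold range, whereas the 10 spots of the probe on an array had an SD of 0.02 to 0.08, so the spread lay between pools and not between spots. It ran separately from that of *Ptf1a* (Pearson's r = 0.05 over the 7 arrays), whose highest pool, mutant pool 1, was the lowest for *Gcg*.

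A second probe named *Gcg*, designed on another transcript and lying 6110 bases from the first, did not follow it. It stayed between 4.83 and 5.56 over all pools, a 1.67-fold range, with a difference of −0.19 (standard error 0.17). Which of the transcripts of the gene this probe reads is not given in the sources used here.

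Some other genes of endocrine cells varied between the pools in the order of *Gcg*, a pattern that was noticed after the values were seen. *Pyy*, which encodes the gut and islet hormone peptide YY, was at 9.22, 11.62, 9.70 and 11.68 in the mutant pools and 10.24, 11.07 and 10.40 in the wild-type pools. Like *Gcg* it was high in mutant pools 2 and 4 and low in mutant pools 1 and 3, over a 5.47-fold range. Its r with *Gcg* was 0.983 over the 7 arrays, 0.978 without mutant pool 2 (the array that may have leaked) and 0.970 for its second probe. *Chga* and *Chgb*, the chromogranins of secretory granules, had an r of 0.963 and 0.935, and *Pcsk2*, the convertase that cuts proglucagon, 0.905. *Ghrl* (ghrelin) and *Sst* (somatostatin) followed more loosely (0.786 and 0.765, or 0.685 and 0.684 without mutant pool 2). *Slc2a2*, on the same list of hormone and secretory genes, did not follow *Gcg* (r = −0.03). The endocrine factors *Neurod1* and *Rfx6* had an r of 0.622 and 0.544, or 0.941 and 0.226 without mutant pool 2. *Neurod1* was not well above background in mutant pools 1 and 2. The pattern was not confined to endocrine genes. *Clps*, the acinar colipase, had an r of 0.874, and the probe closest to *Gcg* was that of *Zfp61*, a zinc finger gene that varied little (r = 0.995, SD 0.13 over the pools).

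Of the 10 other hormone and endocrine secretory genes tested, 4 had an r with *Gcg* above 0.9 and 6 above 0.7, against 0.152% and 2.33% of the 23027 probes measured on each array. The 7 arrays share normalization and each stands for 1 pool, so these r values describe the pools. The r of *Gcg* with *Pyy* lay between 0.911 and 0.991 over the settings. The genotype differences of these genes were −0.02 for *Pyy*, −0.05 for *Chga*, −0.25 for *Chgb*, 0.33 for *Pcsk2*, 0.80 for *Ghrl* and 0.84 for *Sst*, none called. The SD of *Gcg* was 2.39 among the mutant pools and 0.53 among the wild-type pools.

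**Figure D3:**
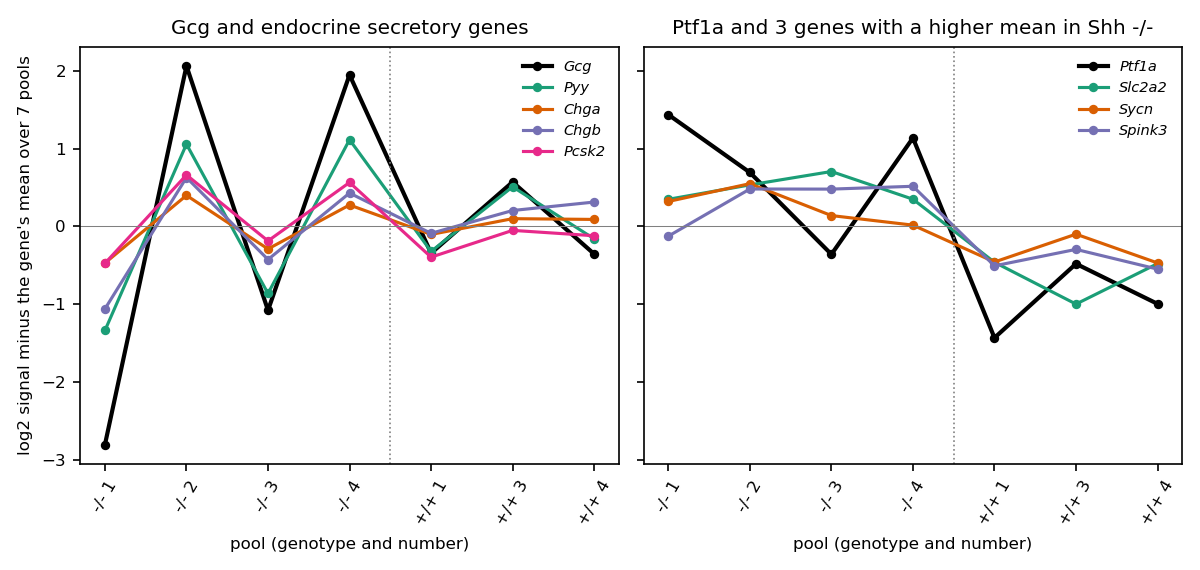
Log2 signal of each gene minus its own mean over the 7 pools (vertical axis) in the 4 *Shh* -/- and 3 *Shh* +/+ pools (horizontal axis, divided by a dotted line). On the left *Gcg* and 4 endocrine secretory genes share peaks in mutant pools 2 and 4. On the right *Ptf1a*, *Slc2a2*, *Sycn* and *Spink3* lie mostly above their mean in mutant pools and below it in wild-type pools.

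*Ins2*, an insulin gene, differed little. By its first probe the log2 signal was 7.23, 7.33, 7.22 and 7.30 in the mutant pools and 7.07, 7.04 and 7.18 in the wild-type pools. The groups did not overlap, but the difference was 0.17 (standard error 0.05), or 1.13-fold. The overlapping second probe gave 6.37, 5.65, 5.64 and 5.76 against 6.21, 5.63 and 5.69, with overlap and a difference of 0.01 (standard error 0.25). On it both pools of the first slide were the high ones. *Ins1* was not well above background in any pool. Since *Ins1* and *Ins2* are close paralogs, a probe for either may read both. In the authors' uncentred values the difference of the first probe was −0.45.

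Among the other hormone and secretory genes, 9 were tested, with 5 higher and 4 lower means and a median of 0.12. *Slc2a2*, the glucose transporter of beta cells and hepatocytes, rose by 1.13 (limma's adjusted p = 0.0318). It was at 8.82, 9.01, 9.18 and 8.83 in the mutant pools and 8.02, 7.48 and 8.0 in the wild-type pools. Its second probe was at 0.38 (adjusted p = 0.426). The call was lost with each of the 7 pools left out in turn except mutant pool 1 (adjusted p of 0.0517 to 0.108), and with the slide as a fixed block (adjusted p = 0.108). *Sst* was at 0.84 (adjusted p = 0.594) and *Ghrl* at 0.80 (adjusted p = 1.00), with overlapping pools.

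*Rbpjl*, whose protein takes the place of RBPJ in the PTF1 complex of acinar cells, was lower in the mutants on average. Its log2 signal was 5.62, 6.05, 5.45 and 5.85 in the mutant pools and 6.80, 5.84 and 6.80 in the wild-type pools. Wild-type pool 3 lay among the mutant pools, so the groups overlapped, and the difference was −0.74 (standard error 0.35). Within slides it was −1.18, −0.39 and −0.95, lower in the mutant each time. All settings kept it below 0, between −1.24 and −0.45.

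*Cpa1*, the pancreatic carboxypeptidase, overlapped between genotypes. Its log2 signal was 9.89, 10.07, 9.69 and 10.09 in the mutant pools and 9.92, 9.72 and 9.28 in the wild-type pools. The difference was 0.30 (standard error 0.21), and within slides −0.03, −0.03 and 0.81, so it came from the slide of pools 4. It was −0.35 in the authors' uncentred values and above 0 in the other settings.

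The *Cpa1* promoter is shown because *Cpa1* belongs to the digestive enzyme genes that PTF1 switches on, so its upstream sequence bears on the comparison with *Ptf1a*. PTF1 binds an E-box together with a TC box, TGGGAAA. In RefSeq (GRCm38.p6) the 250 bases before the start of *Cpa1*, chr6:30638968-30639217 on the plus strand, hold both, in capitals, without overlap. The search asked only whether each motif occurs. Their order and spacing were not examined, and whether PTF1 binds here was not tested.
Cpa1 promoter: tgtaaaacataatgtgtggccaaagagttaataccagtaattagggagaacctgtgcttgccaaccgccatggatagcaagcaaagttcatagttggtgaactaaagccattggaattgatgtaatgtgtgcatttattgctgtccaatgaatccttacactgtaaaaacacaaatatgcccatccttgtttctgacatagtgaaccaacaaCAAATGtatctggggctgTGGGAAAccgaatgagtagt
Searched on both strands, TGGGAAA was found in 1 of the 6 members' promoters in the table, that of *Cpa1*, and in 6.82% of all 32851 promoters. The E-box CANNTG was found in 5 of the 6, all but *Ptf1a*, and in 66.2% of all. Both together were in *Cpa1* alone among the 6 and in 4.65% of all. The GLI core TGGGTGGTC was in 0 of the 6 and in 0.225% of all.

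The other acinar genes, digestive enzymes and their regulators, had means on both sides of 0. Of 13 tested, 6 had a higher and 7 a lower mean, the median was −0.16 and none was called, with 4 at an unadjusted p under 0.05. *Spink3*, a trypsin inhibitor also made in the gut, was at 0.79 (limma's adjusted p = 0.113) and *Sycn*, syncollin of the zymogen granule, at 0.60 (0.203). *Pnliprp2*, a lipase-related gene, was at −0.59 (0.216). *Spink3* was called without mutant pool 1 (adjusted p = 0.0273). A further 9 acinar genes, among them *Pnlip*, *Cela1* and *Prss2*, fell short of the background filter in both genotypes.

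Read by the brightest probe of each, 5 of the 7 genes had a higher mean in the mutants (*Ptf1a*, *Pdx1*, *Gcg*, *Ins2* and *Cpa1*) and 2 a lower one (*Neurog3* and *Rbpjl*). Of all tested probes 55.4% had a higher mean. The 6 members that passed the background filter include 3 whose pools did not overlap, *Ptf1a* and *Ins2* higher and *Neurog3* lower. Of all probes 4.79% did not overlap with the mutants higher and 3.56% with the mutants lower. *Ptf1a* passed the filter only through the mutant pools and *Neurog3* only through the wild-type pools, each the group where it was higher. *Pdx1*, whose pools overlapped, did not pass it, and the second *Ins2* probe overlapped between the genotypes. Limma called 0.558% of the probes tested, 0.264% higher and 0.294% lower, and its calls are not given for the members. Since these pools chose the set, its counts are not read against these shares. In the authors' uncentred values, whose mutant arrays have a median 0.61 lower on average, 2 of the 7 were higher, *Ptf1a* and *Pdx1* remaining so.

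**Figure D4:**
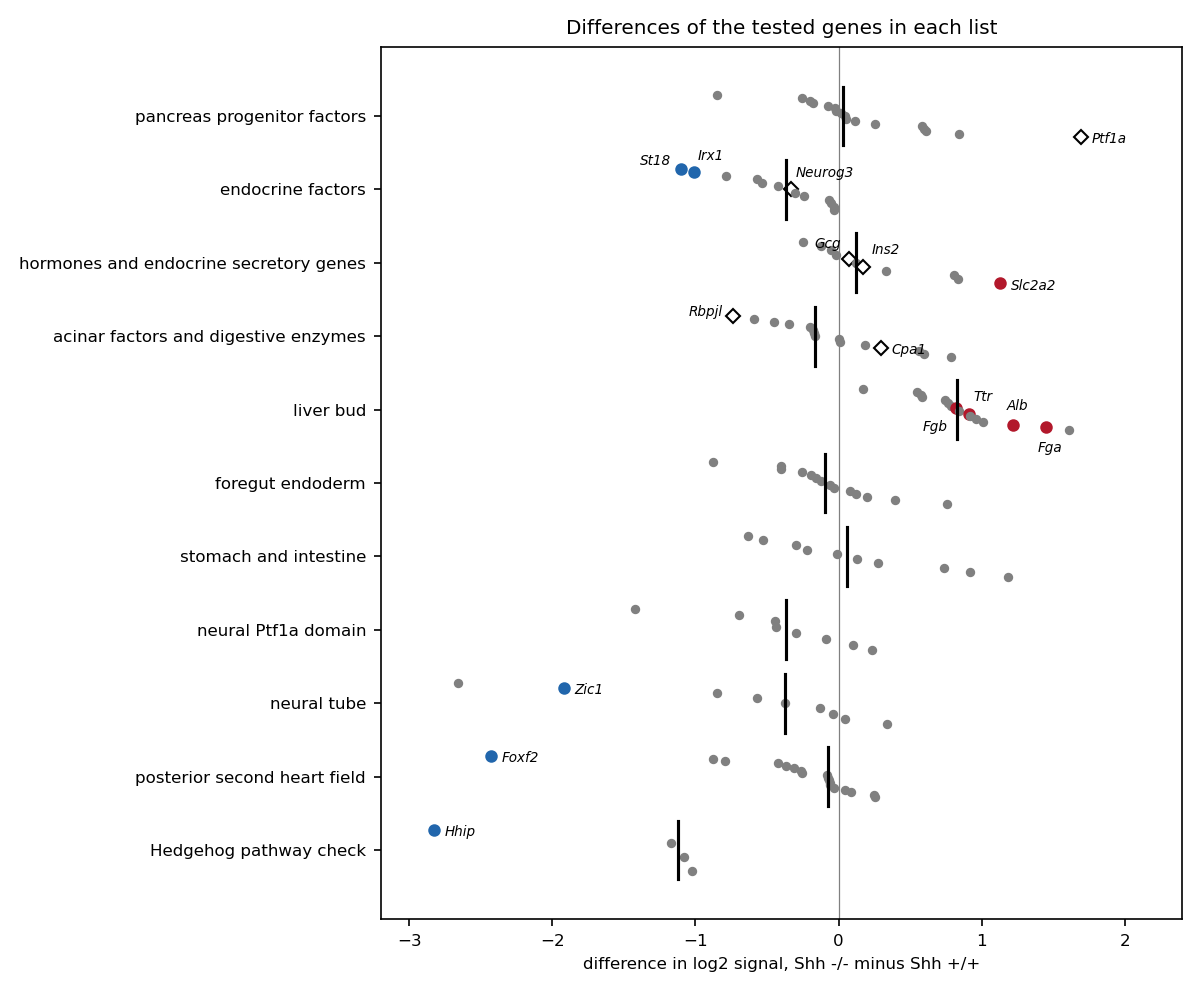
Difference in log2 signal, *Shh* -/- minus *Shh* +/+ (horizontal axis), of every tested gene in each list (rows). Diamonds are the members, red and blue points are genes called higher and lower by limma, grey points were not called and black bars are medians without the members. *Ptf1a* lies at 1.70, apart from a progenitor list centred near 0.03, and the liver bud list is centred at 0.83.

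Markers of the tissues next to the pancreas buds were read in the same pools. The liver bud list, 16 hepatoblast genes, had a mean log2 level of 10.69 to 11.20 in the mutant pools and 9.95 to 10.30 in the wild-type pools. All 16 had a higher mean (14 in the authors' uncentred values), with a median of 0.83. By limma 15 of the 16 had an unadjusted p under 0.05, as had 1841 of all 23129 probes tested. Called were 4, *Alb* (1.22, limma's adjusted p = 0.0495), *Ttr* (0.91, 0.0318), *Fga* (1.45, 0.0439) and *Fgb* (0.82, 0.0493). The *Alb*, *Ttr* and *Fga* calls were lost with each pool left out except mutant pool 1, and that of *Fgb* with each except mutant pool 4, the highest adjusted p being 0.248 for *Alb* without wild-type pool 1. *Afp* was at 0.17 (adjusted p = 1.00). *Hnf4a* and *Prox1* of the progenitor list stand on this list too, and *Slc2a2* is made in hepatocytes as well. Over the 7 pools the r of *Ptf1a* was 0.674 with *Alb* and 0.626 with *Ttr*, values that follow in part from the genotype differences. The part of liver bud tissue in the *Ptf1a* difference was not tested.

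The foregut endoderm list overlapped between genotypes, at 10.26 to 10.42 in the mutant pools and 10.28 to 10.52 in the wild-type pools, with a median difference of −0.09. Its defining markers *Foxa2*, *Cdh1*, *Epcam* and *Sox17* differed by −0.25, −0.20, −0.12 and −0.03, none called. Single genes of the list lay between −0.88 and 0.76, and 5 of the 14 tested had an unadjusted p under 0.05. The stomach and intestine list had 5 higher and 5 lower means of 10 tested and none called, with 3 at an unadjusted p under 0.05. These were *Tff3* at 0.92 (limma's adjusted p = 0.0653), *Gast* at −0.63 (0.310) and *Tff1* at −0.53 (0.346). The largest difference was that of *Cdx2*, at 1.18 (adjusted p = 0.685).

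A list of genes of the neural domains that express *Ptf1a* was at 4.87 to 5.42 in the mutant pools and 5.22 to 5.53 in the wild-type pools, and 6 of its 8 tested genes had a lower mean (4 to 7 across the settings), with a median of −0.37, or 0.02 in the authors' values at 1 median per array, and none called. *Lbx1* was at −0.44 and *Pax2* at −0.08, while *Olig3* was well above background in 1 of 7 pools and *Gsx2* in 0. Defining markers of the labelled tissue, the posterior heart field, were well above background in all pools. *Tbx5* (−0.31), *Isl1* (−0.43), *Osr1* (−0.88), *Foxf1a* (−0.80) and *Wnt2* (0.09) were not called, whereas *Foxf2* fell by 2.43 (limma's adjusted p = 0.00217) and kept its call with any pool left out.

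The 6 tested genes whose pool values were most like those of *Ptf1a* were *Cad*, *Tbl1x*, *Zfp622*, *9130404D08Rik*, *Baz1a* and *Ankrd46*, with an r of 0.961 to 0.973 over 7 arrays. None is on a pancreas list, and each varied little, with an SD over the pools of 0.07 to 0.18. On the pancreas lists the highest r with *Ptf1a* was that of *Sycn* (0.792) and the lowest that of *Pnliprp1* (−0.924), a lipase-related gene at −0.45 (limma's adjusted p = 0.285). Among the members the r with *Ptf1a* was 0.74 for the first *Ins2* probe, 0.58 for *Cpa1*, 0.44 for *Pdx1*, −0.66 for *Rbpjl* and −0.76 for *Neurog3*. These follow in part from the genotype differences given above.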

How the data were processed

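RNA of 7 pools of E9.5 tissue was measured on 1-colour Agilent arrays. The authors' deposited scan files give each spot's mean signal and local background as intensity, read by Agilent Feature Extraction 10.5.1.1 per the labels, and another deposited file holds the authors' VSN-normalized log2 values. The arrays in it are not centred, with medians of 5.50 to 9.93, and why is not given in the sources used here. In the labels the fields for strain and for genotype hold each other's entry. Genome coordinates are those of the array annotation, mm9.

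Mean signals were corrected by normexp with 153 negative control spots and an offset of 50, outlier spots were left out, and signals went through an own implementation of VSN (5 strata, 7 iterations, a trimming share of 0.9), were put on the log2 scale and averaged over the spots of a probe. The study's methods name VSN but not the background correction. Gene-named probes that were well above background in all pools of 1 genotype or both were tested with limma 3.58.1 in R 4.3.3 (data.table version 1.17.8), mutant against wild type, unpaired as in the study's methods, with Benjamini-Hochberg adjustment. SAM, the test of the study, was not run. A gene is read by its brightest probe. Plots used matplotlib 3.10.9 (Python 3.11.15). Precision is limited by the number of arrays. Nothing beyond the pools' numbers says that they came from separate litters, so p-values measure the spread between these pools.

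The 7 genes, the lists and the tests were chosen with earlier results of these data known. Named were every member, of the pancreas lists each called gene and the 3 largest differences per list, of other lists the defining markers and at most 3 called genes, and the genes most like *Ptf1a*. Some genes of these lists are not reported here. The genes varying with *Gcg* were named after their values were seen, as were *Sox9*, *Fev*, *Myt1*, *Lmx1a*, *Pax4*, *Mafa*, *Neurod2*, *Mnx1*, *Neurod1*, *Insm1*, *Ins1*, *Pnlip*, *Cela1* and *Prss2*. So were *Onecut1*, *Prox1*, *Rfx6*, *Cdx2*, *Tff1*, *Tff3*, *Gast*, *Hes5*, *Tubb3*, *Nes* and *Dcx*.

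Pools with the same number in the labels shared a slide. Deviations from the genotype means correlated between arrays of a slide with an r of 0.192, 0.238 and 0.033, against −0.220 to 0.187 for the 9 pairs from different slides, so slide was fitted as a fixed and as a random replicate block. Other settings were 75th percentile scaling, quantile normalization, no background correction, the scanner's processed signals, outlier spots kept, no filter on dim probes, the authors' values, and leaving out each pool. The authors' values at 1 median per array were added after seeing the data.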

Additional observations from a re-analysis of the deposited data

Results flagged for a closer look

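The second *Ins2* probe had 1 mutant pool far from the others. Mutant pool 1 was at 6.37 and the other mutant pools at 5.64 to 5.76, a gap of 0.838 of the range of the 4 pools, above Dixon's critical value for 4 values. Wild-type pool 1, on the same slide, was the highest wild-type pool as well, at 6.21. The probe was 1 of 12 examined in this way, and chance flags about 1 in 20 such groups. What set the slide apart was not tested.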

How the results depend on the processing

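The *Ptf1a* difference of 1.70 stayed above 0 in all settings. It was 0.72 with 75th percentile scaling and 0.83 with quantile normalization, and 1.46 to 2.06 with 1 pool left out. Of the 7 genes, 2 were higher in the authors' values against 5, and 4 or 5 with 1 pool left out. The 129 probes called by limma became 54 with the scanner's processed signals, 33 with no filter on dim probes (fewer calls among 34747 tested), 0 in the authors' values (28 at an unadjusted p under 0.05) and 0 in those at 1 median per array (1038). They became 11 with the slide as a fixed replicate block, which draws nothing from mutant pool 2, alone on its slide, and 182 with a random block. With 1 pool left out they numbered 12 to 139, 12 without mutant pool 3, 18 without wild-type pool 1, 31 without wild-type pool 3, 35 without mutant pool 2, 37 without wild-type pool 4 and 67 without mutant pool 4. Of the calls 47.3% were higher, against 33.3% with the processed signals, 30.3% with no filter, 9.09% with the fixed block and, with 1 pool left out, 0% (without mutant pool 3) to 57.6% (without mutant pool 1). The 3 other pancreas list genes called became 1 with the processed signals, 1 with no filter, 0 in the authors' values, 0 in those at 1 median per array, 0 with the fixed replicate block and 0 to 5 with 1 pool left out. The fixed block also ended the calls of *Alb* (limma's adjusted p = 0.089), *Ttr* (0.103), *Fga* (0.0638), *Fgb* (0.121) and *Zic1* (0.0819), while those of *Hhip* and *Foxf2* were lost in the authors' values alone, at 1 median per array or not. *Nkx6-2* was at −0.03 in the authors' values. The cause of these changes was not tested. Signals of *Ptf1a*, *Pdx1* and *Neurog3* close to background limit how well their differences are measured.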
